A study of Mus musculus with 5 samples.

Results

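Trazodone at its middle dose was compared with particles alone in mouse microglial cells. The TZ 2.5 library came from BV-2 cells given trazodone at 2.5 µg/mL for 1 h and then exposed to urban particulate matter (UPM) at 50 µg/mL for 23 h. The UPM library came from BV-2 cells with the same particle exposure and no trazodone, and each side of the comparison is 1 library. Genes were taken where the mean of the pair was at least 10 CPM (counts divided by the library total, times 1e+06, scaled by TMM factors), which kept 8337 of 40879 gene symbols. The pair is 2 of the 5 libraries of the series. Those genes are called measured here. The untreated control (Cont) is set beside each gene, because a fold against UPM can come from either library of the pair. The other libraries are UPM with trazodone at 1.25 µg/mL (TZ 1.25) and 5 µg/mL (TZ 5), given on the same schedule. All libraries share the BV-2 line, and the labels name no vehicle for Cont. The counts are 3′-end reads of RNA primed with oligo-dT (QuantSeq).

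BV-2 is an immortalised line used as a stand-in for microglia, the resident macrophages of the brain, which take up particles and answer damage and microbial signals with cytokines, interferon-stimulated genes and stress programmes. Trazodone is an antidepressant that blocks serotonin, adrenergic and histamine receptors. The study's title concerns trazodone and inflammation caused by particles, and this pair addresses how particle-exposed cells differ when trazodone was given first.

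The microglial label was met by its markers. Of 12 microglial markers 10 were measured. Values in TZ 2.5 included Csf1r, the receptor for a macrophage growth factor, at 725 CPM, Spi1, the macrophage transcription factor PU.1, at 803 CPM and Trem2, a lipid-sensing receptor, at 233 CPM. P2ry12 and Tmem119, markers of microglia in the intact brain, stood at 1.01 and 5.63 CPM. Of the markers of neurons, astrocytes, oligodendrocytes, endothelium, fibroblasts, T cells, B cells and neutrophils, Kdr (14.6 CPM) and S100a8 (16.0 CPM) were measured, while Mog, Ly6g, S100a9 and Mpo were at 0 in all 5 libraries. The 5 fibroblast markers summed to 4.76 CPM in TZ 2.5, against 0.131 in UPM and 0.666 in Cont, with 1.11 in TZ 1.25 and 0.435 in TZ 5, and their part in the differences was not tested. All 5 had counts in TZ 2.5, Col3a1 the most at 2.45 CPM, while in UPM all but Col1a1 were at 0. TZ 2.5 held 6829720 counts and UPM 7696168, the lowest and the highest totals of the series. Counts were seen for 16148 symbols in TZ 2.5 and 15604 in UPM, and the limit that a count of 0 leaves (3 counts) was 0.439 CPM in TZ 2.5 and 0.390 CPM in UPM.

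More genes were called higher in TZ 2.5 than lower. A gene was called when its fold over UPM was at least 1.5 in either direction and the 95% exact conditional binomial (Clopper-Pearson) interval of the fold excluded 1. By that rule 223 of 8337 genes were higher (2.67%) and 144 were lower (1.73%), 4.4% in either direction. With 1 library a side no test of the conditions can be made, because the pair leaves 0 residual degrees of freedom. The intervals given in parentheses cover counting error only, and no difference between the libraries was checked against a replicate. The median gene was level, at a log2 fold of −0.01. On that scale 5% of genes lay below −0.44 and 5% above 0.48, and 4104 genes had a fold above 1 against 4233 below.

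Calls were most frequent among weakly expressed genes. They made up 11% of the 1762 genes between 10 and 20 CPM, where 114 were higher and 79 lower. Between 20 and 50 CPM the share was 3.91% of 2735 genes, between 50 and 100 CPM 1.82% of 1815 genes and between 100 and 1000 CPM 1.64% of 1954 genes. Of 71 genes at 1000 CPM or more, 2 were higher and 0 lower.

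**Figure D1:**
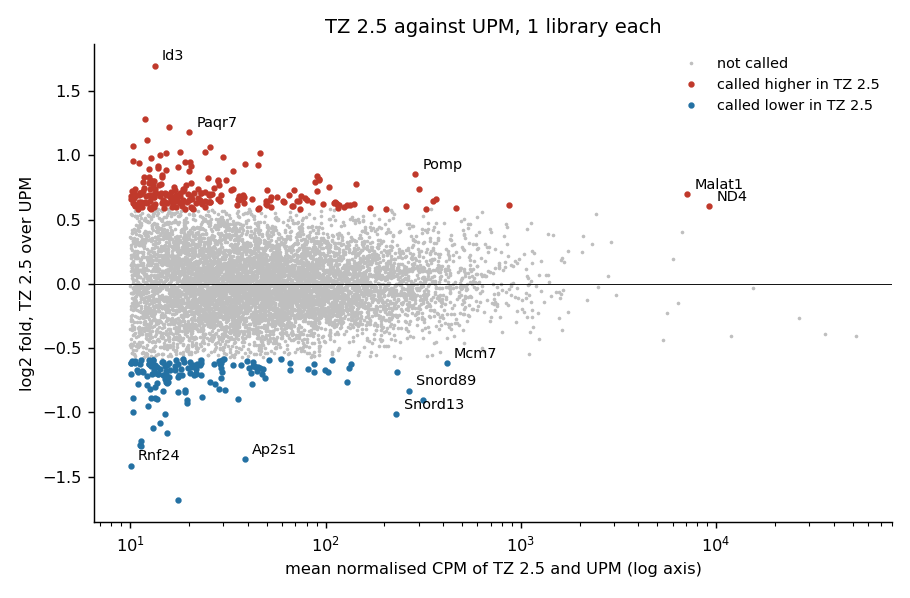
Each point is 1 of 8337 measured genes, with the mean normalised CPM of TZ 2.5 and UPM on a log axis and the log2 fold of TZ 2.5 over UPM on the vertical axis. The 223 genes called higher and the 144 called lower lie mostly at the low end of the level axis, and ND4 and Malat1 are the 2 called genes at 1000 CPM or more.

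The gene with the highest fold was Id3, an inhibitor of basic helix-loop-helix transcription factors that is switched on by bone morphogenetic protein signals. Its normalised CPM was 20.4 in TZ 2.5, against 6.27 in UPM and 6.39 in Cont, and 13.3 in TZ 1.25 and 11.2 in TZ 5. All 3 libraries with trazodone were above both libraries without it, and TZ 2.5 was the highest. The fold was 3.24 over UPM (2.32 to 4.6), and 3.19 over Cont (2.28 to 4.52). In RNA from whole cultures, more cells with a transcript and more of it per cell cannot be told apart. No other gene in the list made for this family and pathway was called. Of the 26 measured Id factors, E proteins and genes of bone morphogenetic protein and TGF-beta signalling, Id3 was the single call, and their median log2 fold was −0.04. Id1 was 1.2-fold (0.947 to 1.52) and Id2 was 0.850-fold (0.812 to 0.890), both under the limit. Tcf12, an E protein that Id factors can bind, had the lowest fold of the list at 0.714-fold (0.664 to 0.769). Related genes outside the list were called in both directions, with Twist2 higher at 1.62-fold and Tob1 lower at 0.536-fold.

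The next highest folds differed in where the control lay. Nt5c3b, which encodes a nucleotidase, had a normalised CPM of 16.9 in TZ 2.5, against 6.93 in UPM and 13.8 in Cont, a fold of 2.44 (1.75 to 3.44). Ggact, of gamma-glutamylamine breakdown, had 16.7 in TZ 2.5, against 7.71 in UPM and 12 in Cont, and Txndc15, a thioredoxin-domain protein, had 61.6 in TZ 2.5, against 30.4 in UPM and 49.0 in Cont. For Nt5c3b, Ggact and Txndc15 the UPM library was the lowest of the 5. Galns, a lysosomal sulphatase that degrades keratan sulphate, had 20.4 in TZ 2.5, against 10.1 in UPM and 16.5 in Cont. Nlrp1b, a sensor that builds inflammasomes, had 17.0 in TZ 2.5, against 8.63 in UPM and 14.8 in Cont. For Galns and Nlrp1b the Cont value was also nearer to TZ 2.5 than to UPM. For other genes Cont was nearer UPM than TZ 2.5, or below UPM. Fbxl14, an adaptor of ubiquitin ligases, had 24.3 in TZ 2.5, against 11.9 in UPM and 8.92 in Cont, with 11.9 in TZ 1.25 and 29.4 in TZ 5. Kcnj9, an inward-rectifier potassium channel subunit, had 18.9 in TZ 2.5, against 9.41 in UPM and 9.18 in Cont. Paqr7, a membrane progestin receptor, had 27.9 in TZ 2.5, against 12.3 in UPM and 16.5 in Cont. For Fbxl14 and Kcnj9 TZ 2.5 and TZ 5 were thus the high libraries, and for Paqr7 TZ 2.5 was the highest of the 5, with 19.0 in TZ 1.25 and 18.9 in TZ 5.

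The rest of the 15 highest folds were Rpl14-ps1, Arhgap45, C1galt1c1, Cog7, Slc25a33 and Rnf144b, between 1.92-fold and 2.04-fold. Arhgap45, a GTPase-activating protein of blood cells, had 39.8 in TZ 2.5, against 20.1 in UPM and 23.8 in Cont, and Cog7, a subunit of the Golgi tethering complex, had 25.3 in TZ 2.5, against 13.1 in UPM and 19.0 in Cont. C1galt1c1, the chaperone of an enzyme that extends O-glycans, had 13.7 in TZ 2.5, against 7.06 in UPM and 9.98 in Cont. Slc25a33, a mitochondrial carrier of pyrimidine nucleotides, had 26.7 in TZ 2.5, against 13.9 in UPM and 19.3 in Cont. In all 4 genes TZ 2.5 was above both UPM and Cont. Rpl14-ps1 is a pseudogene of a ribosomal protein gene, so its reads cannot be placed with certainty.

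At the low end, Ap2s1 stood apart. It encodes the small sigma subunit of AP-2, the adaptor that gathers cargo into clathrin-coated pits at the plasma membrane. Its normalised CPM was 21.7 in TZ 2.5, against 55.7 in UPM and 73.6 in Cont, and 53.9 in TZ 1.25 and 47.7 in TZ 5. TZ 2.5 was below every other library, at 0.389-fold of UPM (0.321 to 0.470) and 0.294-fold of Cont (0.244 to 0.353). No other AP-2 or clathrin gene was called. Of 28 measured genes of clathrin and AP-2 endocytosis Ap2s1 was the single call, the median log2 fold was −0.07, and the other AP-2 subunits Ap2a1, Ap2a2, Ap2b1 and Ap2m1 were 1.04-fold, 0.915-fold, 1.29-fold and 0.875-fold. Of 19 genes of the related adaptors AP-1 and AP-3 and of retromer sorting 0 were called, with a median of −0.14. Among all genes 1.73% were called lower. Of related genes in neither list, Ap5s1 and Vps52 were called lower and Heatr5b higher.

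Rnf24, a RING-finger membrane protein, had the lowest fold of the named genes. Its normalised CPM was 5.49 in TZ 2.5, against 14.6 in UPM and 13.8 in Cont, with 8.59 in TZ 1.25 and 7.25 in TZ 5, a fold of 0.375 (0.252 to 0.546). Cont was close to UPM for Rnf24, and the 3 libraries with trazodone were lower. Ppp1r13b, which encodes the p53-binding apoptosis promoter ASPP1, had 6.64 in TZ 2.5, against 15.9 in UPM and 11.3 in Cont, with 7.62 in TZ 1.25 and 9.72 in TZ 5. The library with the highest value for Ppp1r13b was UPM. Dus4l, which makes dihydrouridine in transfer RNA, had 8.37 in TZ 2.5, against 16.2 in UPM and 15.3 in Cont. Tob1, an antiproliferative protein that recruits the deadenylation machinery, had 9.53 in TZ 2.5, against 17.8 in UPM and 16.0 in Cont. For both, Cont was nearer UPM than TZ 2.5. Tbc1d13, a Rab GTPase-activating protein, had 25 in TZ 2.5, against 46.5 in UPM and 29.8 in Cont. Fdxr, the mitochondrial ferredoxin reductase, had 8.95 in TZ 2.5, against 16.6 in UPM and 13.6 in Cont. In both Tbc1d13 and Fdxr the UPM value was the highest of the 5 libraries. Brms1l, of a histone deacetylase complex, had 6.93 in TZ 2.5, against 13.9 in UPM and 8.92 in Cont, and the TZ 5 value of 13.6 was level with UPM. Actg1, cytoplasmic gamma actin, had 6.78 in TZ 2.5, against 15.8 in UPM and 16.8 in Cont, with 3.33 in TZ 1.25 and 10.0 in TZ 5, and its many near-identical copies make that count uncertain. The other names among the 15 lowest, Snora20, Snord118, Snord13, Snord3a, H2ac8 and n-TWcca3, are small or histone RNAs and are described with their classes. The predicted gene Gm24029, outside the naming rule and picked after its value was seen, was lower still at 0.311-fold (0.228 to 0.418), with 8.37 in TZ 2.5, against 26.9 in UPM and 11.4 in Cont.

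**Figure D2:**
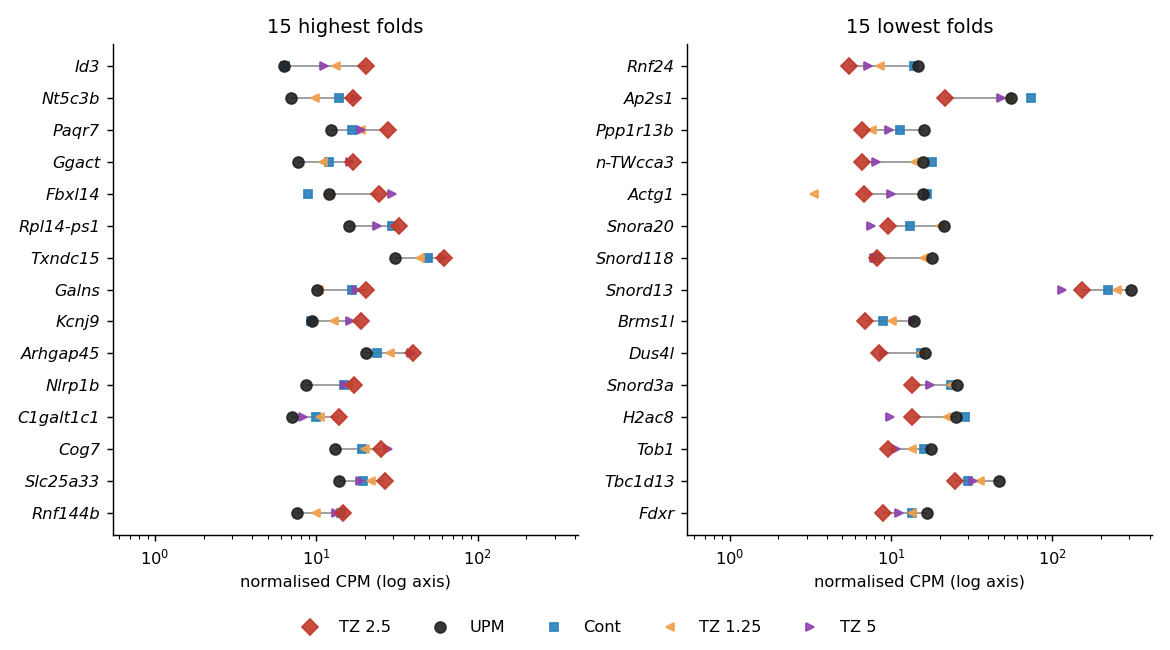
Normalised CPM (log axis) of the named genes at the top (15) and the bottom (15) of the folds of TZ 2.5 over UPM, 1 point per library, joined between TZ 2.5 and UPM. For Id3, Fbxl14 and Kcnj9 the Cont square lies with the UPM circle, while for Nt5c3b and Txndc15 it lies toward TZ 2.5. Ap2s1 has TZ 2.5 at 21.7 with the other 4 libraries between 47.7 and 73.6.

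The Cont library divided the called genes nearly evenly. Of the 223 higher genes, Cont lay on the UPM side of the midpoint (on the log2 scale) for 115, being nearer UPM for 78 and beyond UPM for 37. It lay on the TZ 2.5 side for 108, being nearer TZ 2.5 for 87 and beyond TZ 2.5 for 21. Of the 144 lower genes, Cont lay on the UPM side for 79, with 58 nearer UPM and 21 beyond it, and on the TZ 2.5 side for 65, with 49 nearer TZ 2.5 and 16 beyond it. The same UPM value enters both the call and the place of Cont, so these counts are a description. For the 108 and 65 genes on the TZ 2.5 side, the UPM library is the one farther from Cont.

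**Figure D3:**
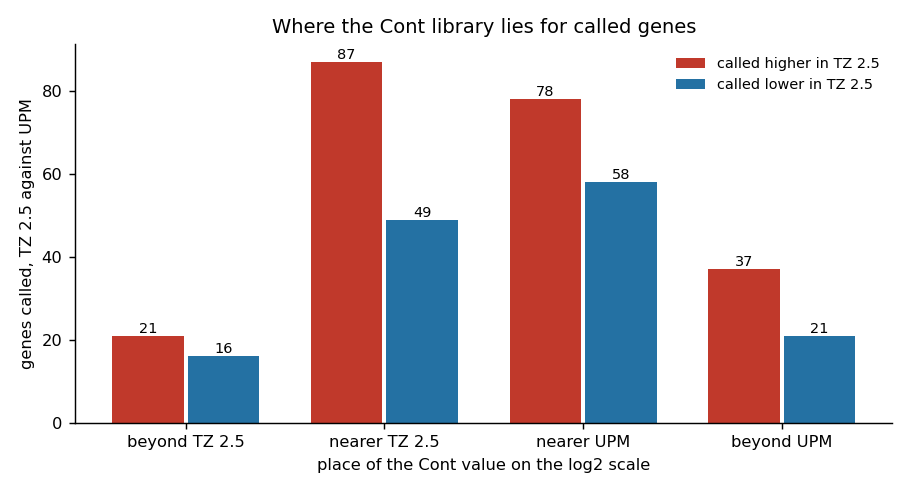
Number of genes called in TZ 2.5 against UPM (bars) by the place of the Cont value between the pair on the log2 scale, for genes called higher and genes called lower. On the UPM side stand 115 higher and 79 lower genes, and on the TZ 2.5 side 108 higher and 65 lower genes.

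Among genes whose Cont value lay close to UPM or beyond it, the highest folds after Id3, Fbxl14 and Kcnj9 included the following. Capn1, a calcium-activated protease, had 19.8 in TZ 2.5, against 10.7 in UPM and 8.52 in Cont. Il17ra, the receptor subunit shared by interleukin-17 cytokines, had 26.0 in TZ 2.5, against 14.1 in UPM and 14.9 in Cont. Heatr5b, a partner of the AP-1 adaptor, had 43.3 in TZ 2.5, against 23.5 in UPM and 23.7 in Cont. For these 3 genes TZ 5 was also above UPM, at 17.3, 26.1 and 43.4. Taf8, a subunit of the general factor TFIID, had 16.9 in TZ 2.5, against 9.67 in UPM and 9.72 in Cont, and Eral1, a chaperone of mitochondrial ribosomal RNA, had 16.5 in TZ 2.5, against 9.67 in UPM and 9.58 in Cont. On the low side, Chac1, which degrades glutathione and is a target of the stress factor ATF4, had 11.3 in TZ 2.5, against 19.1 in UPM and 19.8 in Cont. Dyrk3, a kinase that dissolves condensates in mitosis, had 7.22 in TZ 2.5, against 13.3 in UPM and 14.1 in Cont. These genes were picked for the place of Cont, so that place is not a finding about them.

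Few genes set TZ 2.5 apart from all 4 other libraries. With the same limits against the nearest of them, 2 genes were higher (0.024%), Id3 and Rnf183, and 3 were lower (0.036%), Ap2s1, Foxj2 and Hsd17b7. Id3 was 1.53-fold of its nearest library, TZ 1.25, and Ap2s1 0.454-fold of its nearest, TZ 5. The others are weakly expressed. Rnf183, a ubiquitin ligase, had 16.3 in TZ 2.5, against 10.2 in UPM and 9.72 in Cont, with 10.3 in TZ 1.25 and 10.7 in TZ 5. Foxj2, a forkhead transcription factor, had 10.2 in TZ 2.5, against 16.3 in UPM and 17.0 in Cont, with 17.6 in TZ 1.25 and 17.0 in TZ 5. Hsd17b7, of cholesterol synthesis, had 9.82 in TZ 2.5, against 15.2 in UPM and 15.7 in Cont, with 17.0 in TZ 1.25 and 15.7 in TZ 5. The 4 other libraries were close to each other for Rnf183, Foxj2 and Hsd17b7. The rule picked these genes for TZ 2.5 lying apart, so its displacement is not a finding about them. The same count over the same genes was 6 higher and 8 lower for UPM, 1 and 26 for Cont, 1 and 10 for TZ 1.25, and 3 and 13 for TZ 5, so TZ 2.5 was not the library with the most displaced genes.

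Against the other libraries fewer genes were called than against UPM. TZ 2.5 had 184 genes higher than Cont (2.21%) and 117 lower (1.41%) of 8311. With total counts for scaling, that split was 222 higher and 86 lower. It had 117 higher than TZ 1.25 (1.4%) and 92 lower (1.1%) of 8331. It had 53 higher than TZ 5 (0.634%) and 53 lower (0.634%) of 8355. The closest library by this count was thus TZ 5.

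Small non-coding RNAs held many of the lower calls. Small nucleolar RNAs (snoRNAs) guide chemical modification and cleavage of ribosomal RNA and as a rule carry no poly(A) tail, the stretch that oligo-dT primes. Of 14 measured snoRNAs, taken by the symbol patterns Snora and Snord, 10 were lower, 0 higher and 4 not called, with a median log2 fold of −0.78 over UPM, against −0.01 for all genes. Over Cont the median was −0.45 and over TZ 1.25 it was −0.75, whereas over TZ 5 it was 0.34. The sequences of 3 of them are shown because they carry the lowest folds (Snora20 and Snord118) and the highest level (Snord89) of the called snoRNAs, with the longest run of A in capitals (the first of them where runs tie, as in Snord89), since oligo-dT pairs with A. They come from GENCODE M21 on GRCm38, at chr1:39548745-39548854, minus strand (Snord89), chr11:69073427-69073561, plus strand (Snord118) and chr17:12922790-12922917, plus strand (Snora20).
Snord89: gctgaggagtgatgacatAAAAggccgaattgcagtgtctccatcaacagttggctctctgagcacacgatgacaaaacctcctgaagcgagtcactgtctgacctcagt
Snord118: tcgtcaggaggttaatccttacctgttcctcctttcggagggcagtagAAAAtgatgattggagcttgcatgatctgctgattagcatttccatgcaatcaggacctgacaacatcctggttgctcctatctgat
Snora20: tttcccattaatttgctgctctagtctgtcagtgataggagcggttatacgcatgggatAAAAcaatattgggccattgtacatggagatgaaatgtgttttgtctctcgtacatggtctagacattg
The longest A run had 4 bases in each of Snord89, Snord118 and Snora20. Over the 13 measured snoRNAs with a sequence it had 2 to 4 bases (median 3), and over the 108 snoRNAs with a sequence that were not measured 1 to 8 bases (median 3).

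Snord89 had a normalised CPM of 192 in TZ 2.5, against 342 in UPM and 266 in Cont, with 324 in TZ 1.25 and 118 in TZ 5, a fold of 0.562 (0.526 to 0.601). Snord13, which takes part in acetylation of 18S ribosomal RNA, had 153 in TZ 2.5, against 308 in UPM and 221 in Cont, with 251 in TZ 1.25 and 114 in TZ 5, a fold of 0.496 (0.460 to 0.533). For both RNAs UPM was the highest library and TZ 5 the lowest, with TZ 2.5 below Cont. Snord118, the U8 RNA needed to process large-subunit ribosomal RNA, had 8.23 in TZ 2.5, against 17.9 in UPM and 8.12 in Cont, so Cont was at the TZ 2.5 level. Snora20 had 9.53 in TZ 2.5, against 21.3 in UPM and 13 in Cont, with 20.1 in TZ 1.25 and 7.54 in TZ 5. Snord3a, the U3 RNA of early pre-ribosomal cleavage, had 13.4 in TZ 2.5, against 25.5 in UPM and 23.7 in Cont. The other called snoRNAs were Snora3, Snora30, Snora44, Snora81 and Snora9, between 0.558-fold and 0.658-fold. Of the 10, Cont was on the TZ 2.5 side for Snora20, Snora3, Snora30 and Snord118 and on the UPM side for the others. Snora73b, at 35.9 in TZ 2.5, against 35.5 in UPM and 38.9 in Cont, had the highest fold of the list (1.01).

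Other RNA classes can be set beside these. By RefSeq gene type, 18 of 33 measured snoRNA, guide RNA, Y RNA and transfer RNA genes were lower and 0 higher, which is 54.5%, while 116 of 8021 protein-coding genes were lower and 206 higher. The tryptophan transfer RNA n-TWcca3 had 6.64 in TZ 2.5, against 15.8 in UPM and 18 in Cont. Replication-dependent histone mRNAs, which end in a stem-loop instead of a poly(A) tail, had 3 of 8 measured members lower and 0 higher, with a median of −0.54 over UPM and −0.44 over Cont. H2ac8 had 13.6 in TZ 2.5, against 25.4 in UPM and 28.6 in Cont, H2ac20 had 19.9 in TZ 2.5, against 34.2 in UPM and 34.3 in Cont and H1f3 had 7.94 in TZ 2.5, against 12.2 in UPM and 12.2 in Cont. In each of these 3 genes Cont was at or above UPM, so the difference is also present against Cont. As shares of all counts, snoRNAs took 0.0644% in TZ 2.5, 0.108% in UPM and 0.0853% in Cont. Mitochondrial ribosomal RNA took 7.0% in TZ 2.5, 8.80% in UPM and 7.94% in Cont. Whether the amount of RNA without a poly(A) tail that entered each library has a part in the other differences was not tested.

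**Figure D4:**
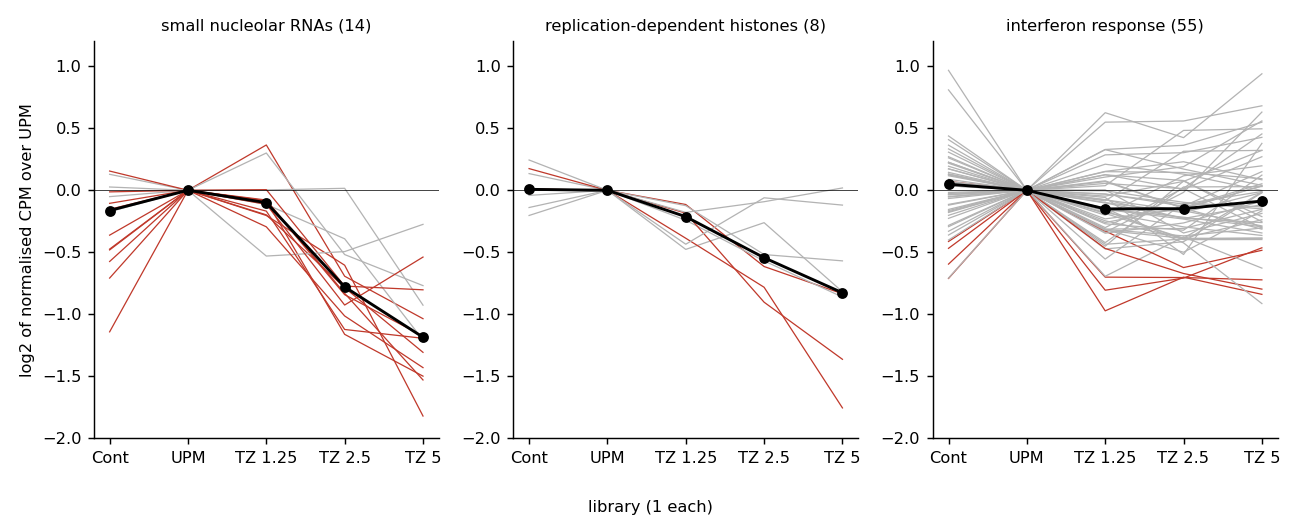
Log2 of normalised CPM over UPM for the measured members of 3 lists, by library (1 each), with called members in red, other members in grey and the median in black. The snoRNA median was −0.78 in TZ 2.5, the histone median −0.54 and the interferon median −0.15, all relative to UPM at 0.

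Long non-coding RNAs that host snoRNAs or stay in the nucleus were on the higher side. Of all genes 2.67% were called higher and 1.73% lower. Of the 151 measured lncRNA genes by RefSeq type 8 were higher (5.30%) and 4 lower (2.65%), and their median was 0.04, so lncRNAs as a class were nearly level. Of the 18 measured host and nuclear RNAs, 3 were higher and 0 lower, and 15 had a fold above 1. Their median was 0.36 over UPM and 0.25 over Cont. Malat1, an abundant RNA of nuclear speckles, had 8800.4 in TZ 2.5, against 5418 in UPM and 5640.2 in Cont, with 6403 in TZ 1.25 and 9949.7 in TZ 5, a fold of 1.62 (1.6 to 1.64). The host gene Snhg5 had 22.4 in TZ 2.5, against 14.4 in UPM and 18.6 in Cont, and the host gene Snhg7 had 26.3 in TZ 2.5, against 17.0 in UPM and 20.4 in Cont. TZ 2.5 was above both UPM and Cont in all 3. Proteins of snoRNA particles and the nucleolus were called in both directions. Of 38 measured, Nsa2, of large-subunit assembly, at 1.59-fold, and Znhit3, a snoRNP assembly factor, at 1.59-fold, were higher. Snu13, a core protein of box C/D particles, was lower at 0.646-fold, with 16.5 in TZ 2.5, against 25.5 in UPM and 24.6 in Cont. The median of the list was 0.06.

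Interferon-stimulated genes included 5 lower calls and 0 higher among 55 measured, beside the 1.73% of all genes called lower. Their median was −0.15 over UPM and −0.17 over Cont, with 36 of 55 below 1. Ifih1, the cytosolic sensor of double-stranded RNA MDA5, had 16.2 in TZ 2.5, against 26.4 in UPM and 19.8 in Cont, a fold of 0.612 (0.482 to 0.775). Dhx58, the related regulator LGP2, had 10.5 in TZ 2.5, against 17.1 in UPM and 12.4 in Cont. Ifi27l2a, a small interferon-induced membrane protein, had 16.5 in TZ 2.5, against 26.8 in UPM and 16.4 in Cont, and Xaf1, a pro-apoptotic antagonist of XIAP, had 13.1 in TZ 2.5, against 20.9 in UPM and 13.8 in Cont. In these 4 genes UPM was the highest of the 5 libraries and Cont lay nearer TZ 2.5 than UPM, or just below TZ 2.5. Ifi44, an interferon-induced cytoplasmic protein, differed, with 107 in TZ 2.5, against 164 in UPM and 173 in Cont and 131 in TZ 1.25 and 117 in TZ 5. For Ifi44 Cont was at the UPM level and every library with trazodone was lower, at a fold of 0.649 (0.592 to 0.712) in TZ 2.5. Sting1, the adaptor of cytosolic DNA sensing, had the highest fold of the list at 1.47-fold (1.14 to 1.91), under the limit. Among related genes not in the list, Irgm1 and Phf11d were also called lower.

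The promoter of Ifih1 is shown because the core of the interferon-stimulated response element was found in it. Of the 5 called genes of the interferon list 3 had an entry in the promoter table and were searched (Ifih1, Ifi44 and Xaf1). The motif searched was GAAANNGAAA on both strands, from 250 bases before to 50 after the gene's start, in RefSeq promoters on GRCm38.p6. The stretch is chr2:62646206-62646233, minus strand, with the motif in capitals, beginning 32 bases after the gene's start.
Ifih1: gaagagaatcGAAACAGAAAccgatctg
The same motif was found in 3.44% of all 32851 promoters in the table, in 3.91% of the 6670 measured genes with a promoter and in 35.6% of the 45 measured interferon genes with one. Ifi44 and Xaf1 had no match to these letters in their windows. A match is a description of the sequence and not a site of binding.

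Genes of cholesterol export and synthesis had medians a little below UPM. The liver X receptors sense oxysterols and switch on cholesterol efflux and fatty acid synthesis. Of 21 measured LXR and efflux genes 2 were lower and 0 higher, beside 1.73% of all genes called lower, the median was −0.19 over UPM and −0.08 over Cont, and 16 of 21 were below 1. Nr1h2, which encodes LXR beta, had 31.3 in TZ 2.5, against 49.4 in UPM and 35.4 in Cont, and the desaturase Scd1 had 13.9 in TZ 2.5, against 21.3 in UPM and 12.6 in Cont. In both genes UPM was the highest library. Cholesterol synthesis had 1 higher and 1 lower of 22, with a median of −0.16 over UPM and −0.06 over Cont. Insig2, which holds the sterol sensor SCAP in the endoplasmic reticulum, had 23.5 in TZ 2.5, against 14.1 in UPM and 16.0 in Cont, with 21.3 in TZ 1.25 and 26.8 in TZ 5, a fold of 1.67 (1.30 to 2.15), and every library with trazodone was above both libraries without it. The lower one was Hsd17b7, already given. Dhcr7, whose enzyme is inhibited by several psychotropic drugs, had 33.2 in TZ 2.5, against 43.3 in UPM and 37.8 in Cont, a fold of 0.767 (0.646 to 0.911), under the limit.

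A peroxisomal fatty acid gene was among the lower calls. Crot, which exports shortened fatty acids from peroxisomes, had 20.6 in TZ 2.5, against 36.3 in UPM and 17.2 in Cont, with 26.1 in TZ 1.25 and 20.3 in TZ 5, a fold of 0.568 (0.461 to 0.698). UPM was the highest library for Crot, and Cont lay beyond TZ 2.5. Of 19 measured peroxisomal genes 2 were lower, Crot among them, beside 1.73% of all genes called lower. In that list 0 were higher, and the median was −0.02. In lipid droplet, PPAR and fatty acid genes, 33 measured, the carrier Fabp4 was higher at 1.6-fold, with 69.4 in TZ 2.5, against 43.4 in UPM and 57.9 in Cont, Crot was lower, and the median was −0.05. Of 26 listed genes of sphingolipids and phospholipids 0 were called, with a median of −0.10. Related genes not in that list were called, with B4galnt1 lower at 0.629-fold (0.565 to 0.701) and Agpat4 and Dgkq higher.

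The study's title concerns inflammation, and the listed cytokine and chemokine genes gave no call in this pair. Of 39 cytokine and chemokine genes 16 were measured, 0 were called, and the median was −0.03 over UPM and −0.17 over Cont. Ccl2, the monocyte chemokine, had 70.6 in TZ 2.5, against 104 in UPM and 81.1 in Cont, with 93.8 in TZ 1.25 and 83.0 in TZ 5. TZ 2.5 was the lowest library for Ccl2 and UPM the highest, at a fold of 0.679 (0.606 to 0.761), just short of the limit. Tnf, a central inflammatory cytokine, had 81.1 in TZ 2.5, against 70.2 in UPM and 74.9 in Cont, a fold of 1.16 (1.03 to 1.30). Nos2, which makes nitric oxide, had 11 in TZ 2.5, against 11.8 in UPM and 17.8 in Cont, so TZ 2.5 was close to UPM and Cont was the higher. Il1b, Il6 and Ptgs2 were below the level at which genes were measured. Cxcl2, a neutrophil chemokine, was 1.12-fold (0.962 to 1.31).

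The signalling genes upstream of cytokines held a few higher calls. Of all genes, 2.67% were called higher and 1.73% lower. In NF-kB, 2 of 22 measured genes were higher and 0 lower, with a median of 0.11. Ikbke, a kinase that activates interferon and NF-kB signalling, had 21.2 in TZ 2.5, against 13.3 in UPM and 12.9 in Cont, and Birc2, the ubiquitin ligase cIAP1, had 21.1 in TZ 2.5, against 12.7 in UPM and 12.5 in Cont. For both, Cont was just below UPM. In Toll-like receptor sensing, 2 of 17 were higher and 0 lower, with a median of −0.10. Ly96, the MD-2 partner of TLR4, had 16.3 in TZ 2.5, against 10.2 in UPM and 8.25 in Cont, and Irak2, a kinase downstream of the receptors, had 54.9 in TZ 2.5, against 36.3 in UPM and 57.6 in Cont. Cont was the lowest library for Ly96 and the highest for Irak2. Tlr4 itself was 0.906-fold (0.815 to 1.01). In the inflammasome list of 17, Nlrp1b was higher as described, and Txnip, a thioredoxin inhibitor that can bind NLRP3, was lower with 102 in TZ 2.5, against 161 in UPM and 146 in Cont, a fold of 0.635 (0.578 to 0.697).

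Few stress genes were called, and 2.67% of all genes were called higher and 1.73% lower. In the integrated stress response, a brake on protein synthesis that raises amino acid supply genes, 20 of 29 measured genes were above UPM, with a median of 0.17, but the median over Cont was −0.05. Sars, the cytosolic seryl-tRNA synthetase, was higher with 431 in TZ 2.5, against 276 in UPM and 369 in Cont, a fold of 1.56 (1.48 to 1.65), and Chac1 was the 1 lower. Ddit3, the stress factor CHOP, had 75.6 in TZ 2.5, against 53.6 in UPM and 98.6 in Cont, a fold of 1.41 (1.24 to 1.61), with Cont the highest. In the NRF2 and glutathione list 0 of 37 were called, with a median of 0.09 over UPM and 0.21 over Cont. Gsta3, a glutathione transferase, had 25.5 in TZ 2.5, against 21.0 in UPM and 5.59 in Cont, with 27.7 in TZ 1.25 and 33.8 in TZ 5. All libraries with particles were above Cont for Gsta3, and TZ 2.5 over UPM was 1.21-fold (0.975 to 1.51). Hmox1, which breaks down haem, was 1.10-fold (0.961 to 1.26).

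Of 24 heat shock chaperones 1 was lower, the co-chaperone Dnajb4, with 14.0 in TZ 2.5, against 22.9 in UPM and 17.0 in Cont. The calls of the lists in this paragraph stand beside 1.73% of all genes called lower. The median was 0.11, and the highest fold was that of Hspa4, an HSP110 chaperone, at 1.36-fold (1.28 to 1.43). Hsp90aa1, the inducible HSP90, had 1229 in TZ 2.5, against 915 in UPM and 1026 in Cont, with 976 in TZ 1.25 and 1299 in TZ 5, a fold of 1.34 (1.30 to 1.39). TZ 2.5 and TZ 5 were the 2 highest libraries for Hspa4 and Hsp90aa1, both under the limit. Among 26 genes of the endoplasmic reticulum stress response and 14 TRiC chaperonin subunits 0 were called, with medians of −0.05 and 0.03. In the list of metallothioneins, zinc and iron, the zinc importer Slc39a10 was lower with 13.3 in TZ 2.5, against 22.0 in UPM and 18.6 in Cont, the 1 call of 16.

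Genes of p53 and apoptosis had a median of −0.10 over UPM and −0.21 over Cont, with 24 of 31 measured genes below UPM. Of all 8337 measured genes 4233 were below UPM. In the list 2 were called higher and 1 lower, beside 2.67% and 1.73% of all genes. Ppp1r13b was lower. Bak1, which permeabilises the mitochondrial outer membrane, was higher with 87.2 in TZ 2.5, against 55.8 in UPM and 78.5 in Cont, and Polk, a DNA polymerase that bypasses lesions, was higher with 13 in TZ 2.5, against 8.49 in UPM and 12.8 in Cont. Cont lay near TZ 2.5 for Bak1 and Polk. These are the calls of the list only. Among genes not in it, Fdxr and Ppm1d were called lower and Cdkn2a higher. Cdkn1a, the p21 inhibitor of cell cycle kinases, had 267 in TZ 2.5, against 394 in UPM and 547 in Cont, with 320.3 in TZ 1.25 and 210.3 in TZ 5. It was 0.678-fold of UPM (0.640 to 0.719), under the limit, and 0.489-fold of Cont (0.463 to 0.517), past it.

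Of 54 DNA replication genes 2 were higher and 2 lower, with a median of 0.02. Those counts stand beside 2.67% of all genes called higher and 1.73% called lower. Mcm7, a subunit of the replicative helicase, had 330.3 in TZ 2.5, against 507 in UPM and 503 in Cont, with 436 in TZ 1.25 and 325 in TZ 5, a fold of 0.652 (0.619 to 0.687), so Cont was at the UPM level. Fen1, the flap endonuclease, had 92.1 in TZ 2.5, against 57.4 in UPM and 75.9 in Cont, and Rpa2, of the single-strand binding complex, had 136 in TZ 2.5, against 87.3 in UPM and 126 in Cont. Both were higher, with Cont between the pair. Mybl1, a Myb-family transcription factor, had 11.3 in TZ 2.5, against 18.8 in UPM and 9.18 in Cont, with UPM the highest library. Of 43 mitosis and spindle genes 0 were called, with a median of −0.06.

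Ribosomal protein genes were the largest list with calls in 1 direction. Of 81 measured 4 were higher and 0 lower (2.67% of all genes were called higher), and 55 had a fold above 1, with a median of 0.11 over UPM and 0.14 over Cont. Over TZ 1.25 the median was 0.17 and over TZ 5 it was −0.07. Rpl23, of the large subunit, had 451 in TZ 2.5, against 285 in UPM and 276 in Cont, with 298 in TZ 1.25 and 524 in TZ 5, a fold of 1.58 (1.49 to 1.67). Rpl36al had 98.6 in TZ 2.5, against 62.6 in UPM and 60.2 in Cont, with 56.7 in TZ 1.25 and 131 in TZ 5. Rps27a, which encodes a fusion of ubiquitin and a small-subunit protein, had 312 in TZ 2.5, against 205 in UPM and 217 in Cont, and Rps19 had 557 in TZ 2.5, against 369.8 in UPM and 448 in Cont. In Rpl23, Rpl36al and Rps27a, TZ 2.5 and TZ 5 were the high libraries and Cont, UPM and TZ 1.25 were close together. Ribosomal protein genes have many processed pseudogenes, and the 5 higher calls among 21 measured transcribed pseudogenes include Rpl14-ps1, so reads may be shared between copies. Among 48 translation factors, Eif3j1, an initiation factor subunit, was higher with 118 in TZ 2.5, against 67.2 in UPM and 94.9 in Cont, and Eef1d, of the elongation complex, was higher with 161 in TZ 2.5, against 105 in UPM and 131 in Cont. Of 75 mitochondrial ribosomal protein genes 0 were called.

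The most abundant called gene was the mitochondrial ND4, a subunit of respiratory complex I. It had 11137 in TZ 2.5, against 7318 in UPM and 7139 in Cont, with 7621 in TZ 1.25 and 13564 in TZ 5, a fold of 1.52 (1.51 to 1.54). TZ 2.5 and TZ 5 stood above the other 3 libraries. The other mitochondrial genes did not share one direction. CYTB was 1.32-fold (1.31 to 1.34), ND1 1.14-fold, ND2 0.980-fold and COX1 0.830-fold, while the ribosomal RNA mt-Rnr2 was 0.755-fold (0.752 to 0.758). None of these passed the limit, and 3 of 9 measured mitochondrial genes were above 1. Of 72 nuclear genes of oxidative phosphorylation, Ndufa5, of complex I, was higher with 139 in TZ 2.5, against 92.3 in UPM and 109 in Cont, and Atp5j, of the ATP synthase, was higher with 117 in TZ 2.5, against 76.3 in UPM and 74.7 in Cont. The 2 calls stand beside 2.67% of all genes called higher, and the median of that list was 0.01.

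Pomp, the chaperone that assembles the 20S proteasome, had 371 in TZ 2.5, against 206 in UPM and 272 in Cont, with 241 in TZ 1.25 and 398 in TZ 5, a fold of 1.81 (1.69 to 1.92). TZ 2.5 and TZ 5 were again the high libraries, but the other 41 measured proteasome genes were not called and the median was 0.04. Clic1, a chloride intracellular channel protein, had 376 in TZ 2.5, against 225 in UPM and 419 in Cont, with UPM the lowest library. In glycolysis, Gapdh was the 1 call of 20, with 35.9 in TZ 2.5, against 20.5 in UPM and 25.7 in Cont, and its many near-identical copies make its low count uncertain. The median of that list was 0.12, and of all genes 2.67% were called higher.

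Genes of microglial state were nearly level. Their calls stand beside 2.67% of all genes called higher and 1.73% called lower. Of 21 measured homeostatic microglial genes 0 were called, with a median of −0.06, and the folds ran from 0.759-fold for Irf8, a transcription factor of macrophages, to 1.30-fold for C1qb, of complement. Of 28 disease-associated microglia genes, Cd9, a tetraspanin, was the 1 higher call, with 181 in TZ 2.5, against 106 in UPM and 118 in Cont, 149.7 in TZ 1.25 and 209 in TZ 5, and a fold of 1.71 (1.56 to 1.87). Gpnmb, a glycoprotein of lipid-laden macrophages, had 2872 in TZ 2.5, against 1969.7 in UPM and 2203 in Cont, with 2555 in TZ 1.25 and 2987 in TZ 5, a fold of 1.46 (1.43 to 1.49), under the limit. For Cd9 and Gpnmb the 3 libraries with trazodone were above the 2 without it. Timp2, an inhibitor of matrix proteases, had the lowest fold of the list at 0.684-fold (0.662 to 0.706). Of 22 phagocytic, Fc and scavenger receptors and 20 genes of antigen presentation 0 were called, with medians of −0.02 and −0.01.

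Lysosomal genes, 55 measured, had the 1 higher call Galns and a median of 0.01. The 16 genes of the vacuolar proton pump had 0 calls and a median of −0.04. Over all genes 2.67% were called higher and 1.73% lower, and the calls of the lists below stand beside those shares. In autophagy, 39 measured, the regulator Ambra1 was higher with 24.4 in TZ 2.5, against 15.6 in UPM and 23.8 in Cont, and Atg10, of the conjugation machinery, was higher with 16.9 in TZ 2.5, against 10.3 in UPM and 9.58 in Cont. Gabarapl2, an LC3-family protein, was lower with 12.6 in TZ 2.5, against 19.2 in UPM and 17.0 in Cont. UPM was the lowest library for Ambra1. Among 30 Rab GTPases, which direct vesicle traffic, Rab4b was lower with 22.7 in TZ 2.5, against 35.7 in UPM and 28.6 in Cont, and Rab43 was lower with 9.82 in TZ 2.5, against 15.2 in UPM and 8.25 in Cont. Of 41 genes of MAP kinase and PI3K signalling 30 were below UPM, with a median of −0.12. The 2 calls of that list were higher and belong to nutrient sensing by mTORC1. Mlst8 had 18.8 in TZ 2.5, against 10.5 in UPM and 19.7 in Cont, and Lamtor2 had 22.1 in TZ 2.5, against 13.7 in UPM and 17.4 in Cont. Related genes not in that list were called in both directions. Mapk10 was higher at 1.72-fold (1.29 to 2.30), and Map3k5, Rps6ka4 and Phlpp2 were lower. Of 38 actin and migration genes, the fibronectin receptor subunit Itga5 was higher with 16.7 in TZ 2.5, against 10.1 in UPM and 15.8 in Cont, Actg1 was lower as described, and the median was −0.07. Of 17 immediate-early genes 0 were called, with a median of −0.02.

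The known receptors of trazodone were hardly counted in these cells. Of 15 genes for its serotonin, adrenergic, histamine and transporter targets 2 were measured. Adra1a, an alpha-1 adrenergic receptor, had 13.4 in TZ 2.5, against 18 in UPM and 18.5 in Cont, a fold of 0.744 (0.566 to 0.975), and Htr2b, a serotonin receptor, had 10.8 in TZ 2.5, against 12.7 in UPM and 12.4 in Cont, a fold of 0.854 (0.623 to 1.17). Neither was called. The aryl hydrocarbon receptor genes Cyp1a1 and Cyp1b1, the usual targets of particle-borne hydrocarbons, were listed at 0 in all 5 libraries.

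**Figure D5:**
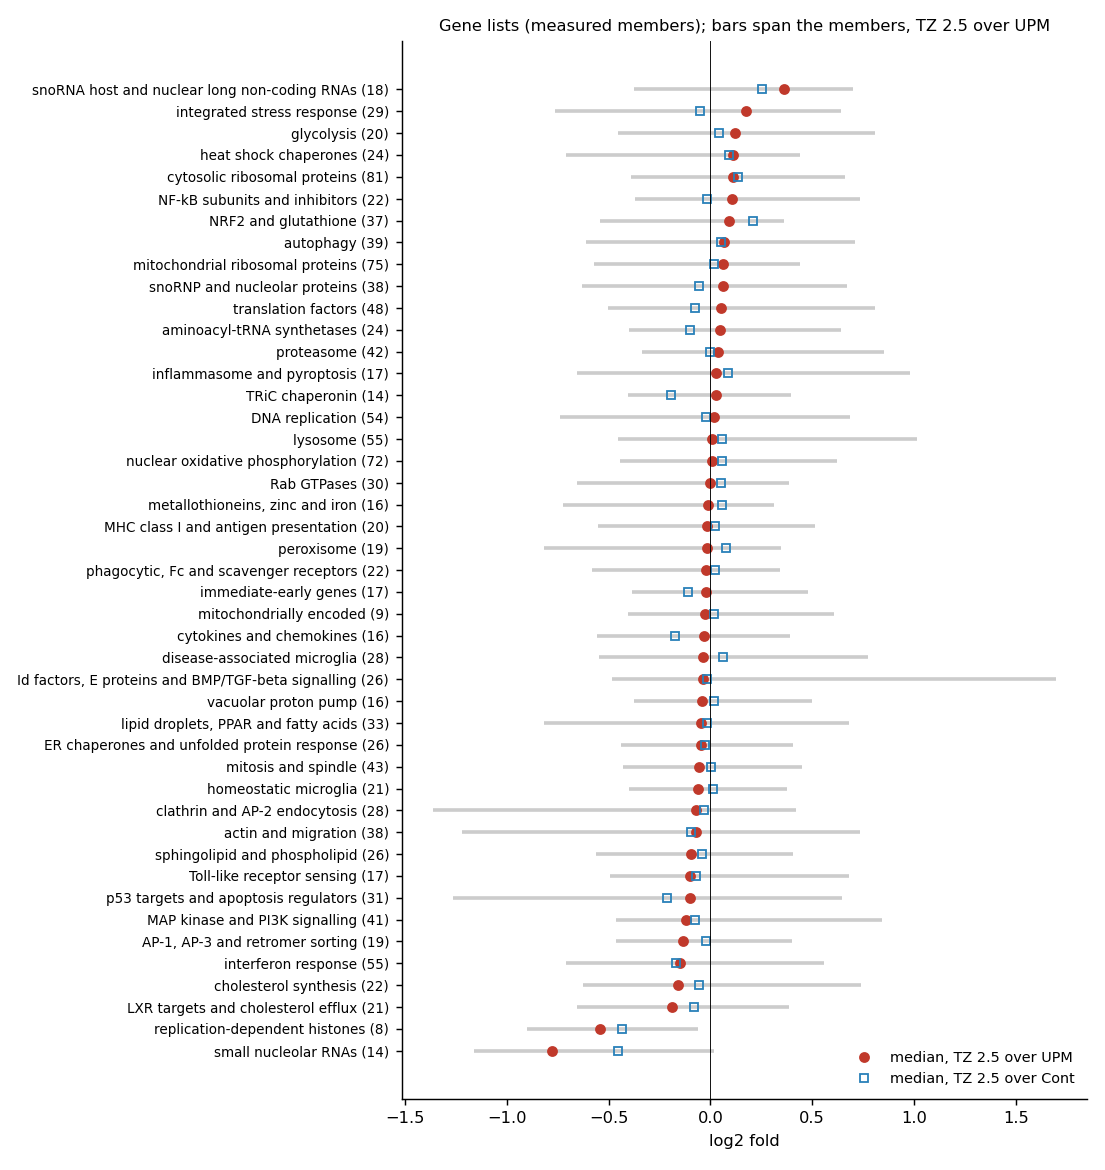
Median log2 fold of the measured members of each list (number in brackets) for TZ 2.5 over UPM (filled) and TZ 2.5 over Cont (open), with grey bars from the lowest to the highest member over UPM. The snoRNA median of −0.78 and the histone median of −0.54 lie lowest. The median of snoRNA host and nuclear long non-coding RNAs, 0.36, lies highest, and most other medians lie within 0.2 of 0.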

How the data were processed

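The 5 libraries, 1 per group, were grouped by the treatment given in the labels. The deposited files, 1 per library, give whole-number read counts by gene symbol, which the authors had not normalised. The authors' reads were single-end, 75 bp, and GRCm39, STAR and edgeR are named in the submitters' processing notes without versions. How reads were assigned to genes and strands is not stated there, so overlapping genes, paralogs and pseudogene copies are uncertain. Without molecular identifiers, the intervals and floors cover counting error only.

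Here, TMM factors over all 5 libraries (0.991 to 1.01) came from edgeR 4.0.16 (limma 3.58.1, R 4.3.3). Folds, exact intervals (scipy 1.17.1) and calls (fold 1.5, interval excluding 1, mean of the pair at least 10 CPM) were computed in Python 3.11.15 and tested on simulated data. Named genes were the 15 highest and 15 lowest called folds without predicted names, genes apart from all 4 other libraries, and called or extreme members of 53 lists of names and 4 classes by name pattern. The members and lists were chosen with earlier results of these data known, and genes named for abundance or for the place of Cont were picked after their values were seen, as were some list members that were not called. Some results are not reported here. Sequences came from GENCODE M21 and RefSeq, on GRCm38, not the submitters' build. Alternatives were DESeq2 1.42.0 size factors, total counts, TMM without snoRNA, histone and mitochondrial genes, thinned libraries, a fold of 2, and CPM minimums of 1 and 30, with a filter on the mean of all 5 libraries and Cont positions added after seeing the data.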

Additional observations from a re-analysis of the deposited data

How the results depend on the processing

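With 1 library per group no replicate could be left out. No paired analysis was possible because each group has 1 library. DESeq2 size factors, total counts and TMM without snoRNA, histone and mitochondrial genes left each count of genes called against UPM, Cont, TZ 1.25, TZ 5 or all 4 within 1.5 times, while 2 counts of called list members moved further with DESeq2 size factors and 3 with total counts. A fold of at least 2 left 12 genes higher and 11 lower than UPM, 14 and 8 against Cont, 5 and 6 against TZ 1.25, 1 and 2 against TZ 5, and 0 above and 1 below all 4 other libraries, with Cont on the UPM side for 63.6% of the lower genes. A CPM minimum of 1 gave 598 and 430 against UPM, 574 and 350 against Cont, 420 and 350 against TZ 1.25, 277 and 253 against TZ 5, and 33 and 13 apart from all 4. A minimum of 30 gave 69 and 38, 36 and 36, 21 and 18, and 4 and 4 in the same order, and 0 and 1 apart from all 4. Thinning to the smallest total left 1 gene above all 4 others, and a filter on the mean of all 5 libraries, chosen after seeing the data, gave 2 above and 4 below. Of 408 recomputed folds of named genes 9 missed the call, those of Foxj2, Gabarapl2, Ndufa5, Polk, Rnf183, Rps19 and Snora44, and 0 changed direction. Of 287 counts of called list members 83 moved, 36 of them at a fold of 2 and 29 at a minimum of 30. Of 270 list medians 4 moved by more than 0.1, at CPM minimums of 1 or 30. Most calls lie under 50 CPM, where depth limits the precision, and no value was checked against a replicate.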

Other observations

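Some genes set TZ 2.5 apart from a single other dose. These were picked as the extreme folds of TZ 2.5 against TZ 1.25 and against TZ 5, so the folds are descriptions. Mmachc, which processes vitamin B12, had a normalised CPM of 16.7 in TZ 2.5 and 6.38 in TZ 1.25, a fold of 2.63 (1.85 to 3.78), with 11.9 in UPM, 9.98 in Cont and 10.4 in TZ 5. Dmpk, the myotonic dystrophy kinase, had 13.6 in TZ 2.5 and 6.51 in TZ 1.25, with 6.01 in UPM, 7.05 in Cont and 8.27 in TZ 5. For Mmachc and Dmpk TZ 2.5 was the highest library. Rgs1, a regulator of G protein signalling, had 6.93 in TZ 2.5 and 15.1 in TZ 1.25, with 13.1 in UPM, 10.5 in Cont and 11.3 in TZ 5, TZ 2.5 being the lowest.

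Against TZ 5, several genes had their highest value in TZ 5. Senp3, a nucleolar SUMO protease, had 20.1 in TZ 2.5 and 38.6 in TZ 5, a fold of 0.520 (0.421 to 0.641), with 27.6 in UPM and 26.2 in Cont. Rpa3, of the single-strand DNA binding complex, had 10.1 in TZ 2.5 and 19.9 in TZ 5, with 10.6 in UPM and 9.85 in Cont. Camk2g, a calcium-dependent kinase, had 10.5 in TZ 2.5 and 21.6 in TZ 5, with 16.3 in UPM and 12.9 in Cont. TZ 5 was the highest of the 5 libraries in all 3 genes. Ctu1, which thiolates transfer RNA, went the other way, with 18.3 in TZ 2.5 and 10.0 in TZ 5, a fold of 1.83 (1.36 to 2.49), beside 17.4 in UPM and 13.6 in Cont.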
